A study of Rattus norvegicus with 6 samples.

Results

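CpG shores that lie away from promoters were examined in DNA of rat dorsal root ganglia 3 weeks after spinal nerve ligation (SNL) or sham surgery. The members were every nuclear CpG position that the authors' annotated table flags as shore and flags neither as CpG island nor as promoter. There were 2111 such positions out of 32674 annotated nuclear positions, and their nearest annotated transcript starts belonged to 955 genes out of 8016. The choice used no methylation value. There were 3 SNL and 3 Sham libraries, and per the labels' protocols the animals were male Sprague-Dawley rats weighing about 220 g, aged 8 to 9 weeks. For SNL, a model of neuropathic pain, tight ligatures were put on the spinal nerves L5 and L6 of the left side. The sham operation left out the ligature and was made on the contralateral side, so ganglia in the 2 groups can come from the same rat. The labels number the libraries and do not say which are separate animals, so the p-values rest on library-to-library spread that could be technical. The assay was reduced representation bisulfite sequencing (RRBS), in which the enzyme MspI cuts DNA at CCGG and bisulfite leaves methylated cytosines readable as C.

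Methylation of the cytosine in CpG pairs is a mark that is copied when cells divide, and in vertebrates most CpGs carry it. CpG islands are stretches dense in CpG that usually stay unmethylated and often hold a transcript start, and their methylation goes with silencing. Shores are the flanks of islands, where density falls off and methylation changes from the island's low level to the high level of the surrounding DNA, and they are known for methylation that differs between tissues and cell types. A dorsal root ganglion holds sensory neurons with satellite glia, Schwann cells, immune cells, fibroblasts and vessels. In such bulk DNA a change of methylation within a cell type and a change in the mix of cell types cannot be told apart, and expression markers of these cells were not measured in the data used here.

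The starts nearest to shores were rich in CpG beside all promoters, and genes nearest to other annotated positions were not compared. In the RefSeq promoters of the assembly GRCr8, the 250 bases before the start held a median of 16 CpGs in 702 matched genes with a shore position, against 6 in all 27457 promoters. The ratio of observed to expected CpG had a median of 0.722 in the genes with a shore position and 0.406 in all promoters. The MspI site CCGG, which reads the same on both strands, was present in 74.4% of these promoters and in 47.6% of all promoters. The 250 bases before 3 of these starts are printed here to let the CpG density beside a shore be read directly, because shore positions 1.38 to 2.05 kb inside these 3 genes came out lower after SNL. Capitals mark each CG, sequences run 5′ to 3′, and all 3 are plus-strand GRCr8 sequence: Amz2 at chr10:94900842-94901091 with 13 CpGs, Timm10b at chr1:169392105-169392354 with 23 CpGs, and Tgfb1 at chr1:90324062-90324311 with 11 CpGs. Of all promoters, 31.8% held at least as many CpGs as Amz2, 13.2% at least as many as Timm10b and 36.1% at least as many as Tgfb1.
Amz2: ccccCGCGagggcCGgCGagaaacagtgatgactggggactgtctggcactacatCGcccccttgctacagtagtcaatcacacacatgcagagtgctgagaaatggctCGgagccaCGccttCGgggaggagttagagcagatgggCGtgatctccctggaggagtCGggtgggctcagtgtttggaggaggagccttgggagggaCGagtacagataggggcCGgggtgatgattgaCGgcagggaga
Timm10b: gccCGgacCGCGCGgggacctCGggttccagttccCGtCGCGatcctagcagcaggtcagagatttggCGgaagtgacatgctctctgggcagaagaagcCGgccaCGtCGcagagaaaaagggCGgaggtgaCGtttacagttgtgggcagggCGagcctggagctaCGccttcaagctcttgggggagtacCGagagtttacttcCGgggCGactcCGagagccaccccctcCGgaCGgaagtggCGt
Tgfb1: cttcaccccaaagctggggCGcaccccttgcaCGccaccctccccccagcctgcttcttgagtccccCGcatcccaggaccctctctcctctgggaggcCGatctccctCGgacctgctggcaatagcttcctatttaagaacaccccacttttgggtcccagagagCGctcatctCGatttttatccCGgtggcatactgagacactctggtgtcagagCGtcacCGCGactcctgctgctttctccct
The authors' positions are on the older assembly rn4, so all positions given below are rn4 and the sequence of the shore positions themselves is not shown. Promoters were matched to genes by symbol. The Amz2 start is listed on the minus strand in rn4 and its printed promoter lies on the plus strand in GRCr8. Whether both belong to the same start was not checked.

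Shore positions spanned the whole range of methylation, with a heavy low end. Averaged over the 6 libraries, 991 of the 2111 positions (46.9%) were below 20% methylation, 661 (31.3%) lay between 20% and 80%, and 459 (21.7%) were above 80%. Among the 30563 other annotated positions, 13.4% were below 20%, 30.9% lay between and 55.8% were above 80%. The median level was 24.8% at shores (quartiles 3.87% and 75.8%) and 83.3% at the other positions. Introns held 614 shore positions with a median level of 36.1%, exons held 121 with a median of 69.8%, and 1376 intergenic positions had a median of 16.1%. The distance to the nearest start was 1 to 2 kb for 666 positions, 2 to 10 kb for 548, 10 to 100 kb for 675 and more than 100 kb for 222, with medians of 23.9%, 22.5%, 22.8% and 43.5% in that order. The 1083 positions upstream of their start had a median of 17.5%, and the 1028 downstream had a median of 31.1%. Most genes had few positions: 392 had 1 and 19 had 7 or more, up to 18.

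**Figure D1:**
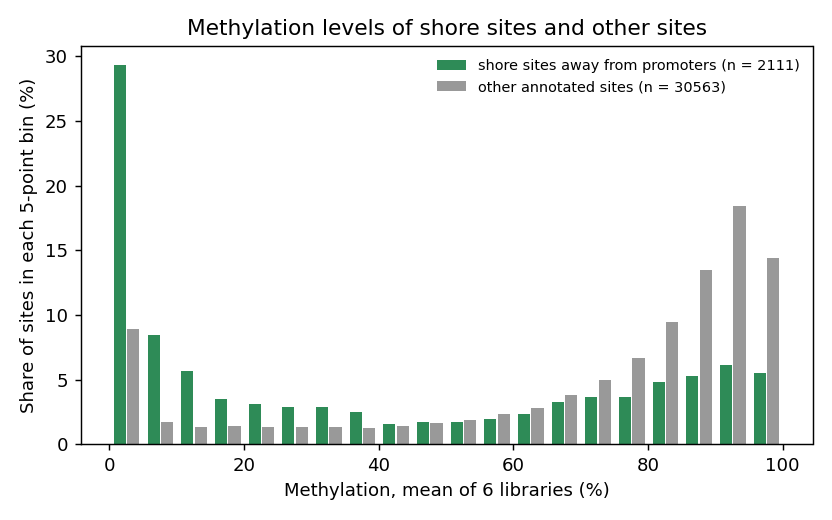
Share of positions in each 5-point bin of methylation (y axis, %) against the mean methylation of the 6 libraries (x axis, %), for shore positions away from promoters (green) and all other annotated positions (grey). Shores pile up at the low end, where 46.9% of them lie below 20%, while 55.8% of the other positions lie above 80%.

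Every member had at least 100 reads in each library, with a median coverage of 230.5 reads, and the summed coverage of nuclear positions ran from 27131679 to 34226084 per library. The median spread within a group at shore positions was 1.65 percentage points (SD), against 1.89 points over all annotated positions.

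As deposited, the mean of shores differed between the groups by less than the spread of the libraries. Their mean methylation was 38.6%, 38.1% and 37.7% in the SNL libraries, against 38.0%, 38.6% and 38.7% in the Sham libraries. The groups overlapped, and the difference of -0.29 ± 0.33 percentage points (SE, n = 3 each) had a two-sided exact permutation p of 0.6. The logit of a position is the log of its methylated over its unmethylated reads. With each library's mean logit over all annotated positions taken out, the difference turned to 0.49 points. Its exact permutation p was 0.1, the smallest that 3 libraries against 3 allow. The other annotated positions averaged 69.3% ± 0.81 in SNL and 70.3% ± 0.44 in Sham libraries (SD, n = 3 each). Within each library, the mean of shores minus that of the other positions was -31.6, -31.0 and -30.9 points after SNL, against -31.8, -31.8 and -32.0 points after sham surgery. This gap was smaller by 0.67 ± 0.23 points in SNL libraries, without overlap, at an exact two-sided permutation p of 0.1, again the smallest possible. The median position differed by -0.11 points at shores and by -0.55 points over all annotated positions, and 52.2% of shore positions and 61.3% of all positions were lower in SNL.

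By range of level, differences in the mean stayed under 1 point. Positions below 20% averaged 5.72%, 5.66% and 5.54% in the SNL libraries, against 5.42%, 5.53% and 5.48% in the Sham libraries. The SNL libraries were all higher there, by 0.16 points on average. Between 20% and 80%, shores averaged 50.9% ± 0.99 in SNL and 51.8% ± 0.76 in Sham libraries, and above 80% they averaged 90.0% ± 0.45 in SNL and 90.5% ± 0.48 in Sham libraries (SD, n = 3 each), with overlap in both ranges. Intronic shores averaged 43.0% ± 0.56 in SNL and 43.8% ± 0.38 in Sham libraries. Intergenic shores averaged 34.3% ± 0.43 in SNL and 34.4% ± 0.35 in Sham libraries, and exonic shores 57.3% ± 0.38 in SNL and 57.2% ± 0.54 in Sham libraries. None of these 6 classes passed an exact two-sided permutation test adjusted over the 6, with adjusted p from 0.4 to 0.9, and raw values could not go below 0.1. From the lowest to the highest range, SNL minus Sham was 0.16, -0.84 and -0.47 points at shores. At other positions of the same ranges it was 0.077, -1.50 and -0.91 points, so the mean loss above 20% was smaller at shores. Shores minus other positions differed between the groups by 0.087, 0.66 and 0.44 points in that order. The exact permutation p adjusted over the 3 ranges was 0.5, 0.3 and 0.3.

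**Figure D2:**
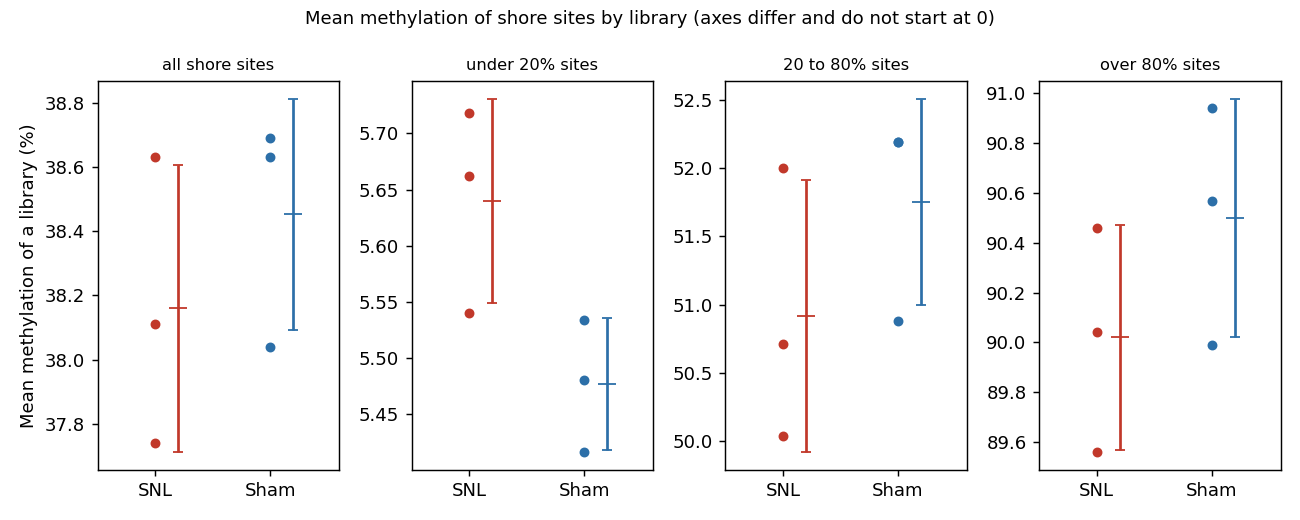
Mean methylation of shore positions in each library (y axis, %, with an axis of its own in each panel that does not start at 0), SNL in red and Sham in blue, for all 2111 positions and for the 3 ranges of level. Points are libraries and bars are mean ± SD. The groups overlap in 3 of the panels, and for positions under 20% methylation the SNL libraries (5.54% to 5.72%) lie above the Sham libraries (5.42% to 5.53%).

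Single shore positions were called at the share found over all annotated positions. A position was called when a logistic model of its methylated and unmethylated reads, with overdispersion moderated across positions, gave a Benjamini-Hochberg adjusted p under 0.05 over all 32674 annotated positions. This moderated logistic test called 30 of the 2111 shore positions (1.42%), and 464 of all annotated positions (1.42%). On simulated reads this test made more false calls than its nominal share, so its adjusted p-values can understate the share of false calls among the 30. Of the 30, 23 were lower and 7 higher in SNL, and over all annotated positions 1.24% were called lower and 0.181% higher. The balance of directions depends on the overall level of the libraries. When each library's mean logit over all annotated positions was taken out, 15 of 30 called shore positions were lower and 15 higher. Of these 30, 22 were among the 30 called without that step. All 30 showed no overlap between the groups, which held for 308 shore positions (14.6%), 160 lower and 148 higher, and for 17.8% of all annotated positions. No shore position was called when each position's own spread was used in an F test, or by limma on logit values, although 186 and 189 shore positions had an unadjusted p under 0.05 in these tests and 208 in the moderated one. Leaving out SNL 1, SNL 2 or SNL 3 gave 25, 14 and 20 calls in that order, and leaving out Sham 1, Sham 2 or Sham 3 gave 18, 19 and 8 calls.

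Most called positions had intermediate levels. Of 661 shore positions between 20% and 80%, 25 (3.78%) were called, close to the 3.11% of other positions in that range. Below 20%, 1 of 991 (0.101%) was called, against 0.538% of other positions, and above 80%, 4 of 459 (0.871%), against 0.698% of other positions, and these differences were not tested. Introns held 17 of the 30 called positions (56.7%) and 29.1% of all shore positions, intergenic DNA held 12 and exons 1, and this difference in place was not tested. Calls lay downstream of the start at 21 positions and upstream at 9. The 30 positions fell in 23 genes and 23 windows of 1 kb. The median difference was -10.8 points at positions called lower and 13.6 points at those called higher, and 19 of the 30 differed by 10 points or more. In the authors' deposited table, 28 of the 30 had a q-value under 0.05. The exceptions were both Ripply3 positions, with q-values of 0.132 and 0.179. These q-values come from the same reads, so they are no separate evidence. The authors' q-value was under 0.05 at 75 of the 2111 shore positions and at 1484 of all 32674 annotated positions. By that measure the share was lower at shores, unlike in the moderated logistic test, and this difference was not tested. The moderated logistic test called none of 30 shore positions on chromosome X, where 3 had an unadjusted p under 0.05 (2 in the F test on each position's own spread and 4 in limma, which called none either). With 1.42% called over all annotated positions, 30 positions are too few to read anything from this 0.

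**Figure D3:**
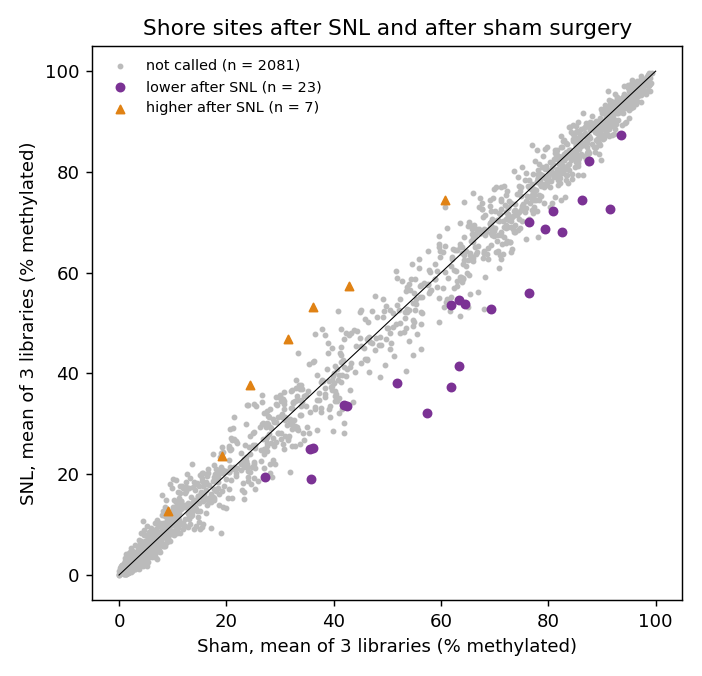
Mean methylation of the 3 SNL libraries (y axis, %) against that of the 3 Sham libraries (x axis, %) at each of 2111 shore positions, with the line of equal values. Purple circles are the 23 positions called lower after SNL and orange triangles the 7 called higher, and most of them lie between 20% and 80%.

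The called positions with the largest losses after SNL lay in introns. Specc1, which encodes a coiled-coil cytoskeletal protein, carried the largest difference among the called positions, at chr10:48241540 in an intron 123 kb from the nearest listed start. It was methylated at 26.4%, 30.5% and 39.3% in SNL, against 54.2%, 61.8% and 56.4% in Sham libraries. The highest SNL library stayed below the lowest Sham library, and the difference was -25.4 ± 4.4 points (SE, moderated logistic test, adjusted p = 0.00231, 140 to 183 reads). The neighbouring Specc1 position chr10:48241557 fell to 41.5% in SNL, against 63.3% in Sham libraries (moderated logistic test, adjusted p = 0.00322). Amz2 encodes a zinc metalloprotease of the archaemetzincin family. Its position chr10:98898461, in an intron 1.38 kb from the nearest listed start, had 39.3%, 35.4% and 37.0% in SNL, against 68.0%, 59.7% and 57.6% in Sham libraries. All SNL libraries were below 40% and all Sham libraries above 57%, a difference of -24.5 ± 3.3 points (SE, moderated logistic test, adjusted p = 0.000361).

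Further positions were read more deeply and differed by less. Rab21 encodes a small GTPase of early endosomes. The intergenic position chr7:54505876, 69.2 kb from its start, had 34.1%, 33.3% and 33.3% in SNL, against 44.1%, 42.0% and 41.5% in Sham libraries. With 1206 to 1756 reads, the SNL libraries lay within 1 point of each other, and the difference was -8.95 ± 0.85 points (SE, moderated logistic test, adjusted p = 0.00034). Timm10b encodes a small chaperone of mitochondrial protein import. The intronic position chr1:163371290, 1.56 kb from its start, had 26.3%, 25.9% and 23.5% in SNL, against 34.7%, 35.9% and 37.5% in Sham libraries, a difference of -10.8 ± 1.2 points (SE, moderated logistic test, adjusted p = 0.000806). The groups were separated by more than 8 points at 702 to 924 reads. Senp6 encodes a protease that removes SUMO chains. At the intergenic position chr8:85202564, 78.8 kb from its start, methylation was 66.1%, 68.8% and 70.9% in SNL, against 78.4%, 77.2% and 82.4% in Sham libraries (moderated logistic test, adjusted p = 0.00176). Pstpip2 encodes an F-BAR protein of macrophages. Its intronic position chr18:74755077 had 34.2%, 32.2% and 35.2% in SNL, against 44.1%, 40.0% and 41.7% in Sham libraries (moderated logistic test, adjusted p = 0.00525). Specc1, Amz2, Timm10b, Senp6, Rab21 and Pstpip2 kept their call whichever library was left out. Their adjusted p in the moderated logistic test was highest for Pstpip2, at 0.0385 without Sham 3.

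Genes of the cell cycle, signalling and development were among those with called positions. Ccnd1 encodes cyclin D1, which drives entry into the cell cycle. Its intronic position chr1:205364360, 2.40 kb from the start, had 55.5%, 54.9% and 51.0% in SNL, against 65.7%, 61.7% and 66.1% in Sham libraries. The groups did not overlap and differed by -10.7 ± 2.0 points (SE, moderated logistic test, adjusted p = 0.00641), and without Sham 3 the adjusted p was 0.0628. Tgfb1 encodes a cytokine that signals to fibroblasts, glia and immune cells. Its intronic position chr1:80896757, 2.05 kb from the start whose promoter is printed above, had 19.2%, 23.0% and 15.2% in SNL, against 31.7%, 42.1% and 33.6% in Sham libraries. Every SNL library was lower, with a difference of -16.6 ± 3.9 points (SE, moderated logistic test, adjusted p = 0.0242, 120 to 165 reads). In the same moderated logistic test the Tgfb1 call was lost on leaving out SNL 3 (adjusted p = 0.0958), Sham 2 (adjusted p = 0.144) or Sham 3 (adjusted p = 0.0803). Pax3 encodes a transcription factor of neural crest and muscle progenitors. At chr9:77579817, 3.19 kb upstream of its start, methylation was 19.8%, 19.4% and 19.2% in SNL, against 28.6%, 24.5% and 28.7% in Sham libraries. The 3 SNL values were nearly equal at 983 reads or more, the difference was -7.79 ± 1.4 points (SE, moderated logistic test, adjusted p = 0.00157), and the call held without any 1 library, with adjusted p up to 0.0188.

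Called losses also lay near the genes that follow. A position of the transcript NM_001107412, which has no matched symbol, had 74.5%, 74.3% and 69.0% in SNL, against 95.8%, 85.5% and 93.3% in Sham libraries (moderated logistic test, adjusted p = 0.0125). Its call was lost without Sham 1 (adjusted p = 0.0604) and without Sham 3 (adjusted p = 0.0895). Lingo3, which encodes a leucine-rich repeat membrane protein, had 51.4%, 56.3% and 50.6% in SNL, against 64.0%, 70.9% and 73.2% in Sham libraries at an intergenic position 2.04 kb from its start. Ly6g5c of the major histocompatibility region averaged 38.1% in SNL and 51.9% in Sham libraries. Tuba1c, an alpha-tubulin gene, averaged 74.4% in SNL and 86.2% in Sham libraries. Gas2l2, whose protein links actin to microtubules, averaged 24.99% in SNL and 35.6% in Sham libraries. Qrfprl, related to a neuropeptide receptor, averaged 72.2% in SNL and 80.9% in Sham libraries. Ripply3, which encodes a transcriptional corepressor of the developing pharynx, averaged 53.5% in SNL and 61.8% in Sham libraries. The adjusted p of these 6 genes in the moderated logistic test ran from 0.0277 for Lingo3 to 0.044 for Tuba1c. Each of the 6 lost its call without Sham 3, with adjusted p of 0.149 for Lingo3, 0.156 for Ly6g5c, 0.178 for Tuba1c, 0.183 for Gas2l2, 0.152 for Qrfprl and 0.145 for Ripply3, and Tuba1c, Gas2l2 and Qrfprl lost it in all 6 such fits. With the library mean logits taken out, Ly6g5c, Tuba1c, Gas2l2, Qrfprl and Ripply3 were no longer called. Their adjusted p in the moderated logistic test was 0.0621, 0.0658, 0.0782, 0.0756 and 0.102 in that order. Dnase1 and Klhdc9, named after their values were seen because they complete the genes called lower, differed by -6.27 and -5.36 points and kept their call in 1 of 6 such fits each.

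Called gains after SNL were few. Ndrg2 encodes a member of the N-myc downstream-regulated family that is abundant in astrocytes. Its intergenic position chr15:27348809, 1.62 kb from the start, had 50.0%, 43.8% and 46.8% in SNL, against 28.3%, 38.1% and 28.2% in Sham libraries. The lowest SNL library was above the highest Sham library, and the difference was 15.3 ± 3.7 points (SE, moderated logistic test, adjusted p = 0.0419). Cdc42ep1 encodes an effector of the GTPase Cdc42 that organises septins and actin. Its position chr7:116803063, the 1 called position below 20%, had 12.2%, 13.1% and 13.1% in SNL, against 8.66%, 10.4% and 8.40% in Sham libraries. The difference of 3.61 ± 0.70 points rested on 1522 to 1963 reads (SE, moderated logistic test, adjusted p = 0.0195). Zbtb7a encodes a zinc finger repressor. Its position chr7:10062309 had 22.1%, 24.5% and 24.3% in SNL, against 19.3%, 18.4% and 19.8% in Sham libraries (moderated logistic test, adjusted p = 0.0442). The transcript NM_001106032, which has no matched symbol, averaged 53.2% in SNL and 36.1% in Sham libraries (moderated logistic test, adjusted p = 0.0493). NM_001107033, also without a symbol, averaged 37.8% in SNL and 24.4% in Sham libraries (moderated logistic test, adjusted p = 0.0405). None of the positions called higher kept its call in all 6 fits that left out a library. Without Sham 3, the adjusted p of the moderated logistic test was 0.206 for Ndrg2, 0.128 for Cdc42ep1, 0.129 for Zbtb7a, 0.215 for NM_001106032 and 0.128 for NM_001107033. Without SNL 2 it was 0.0662 for Ndrg2, 0.0745 for Cdc42ep1, 0.145 for Zbtb7a, 0.0823 for NM_001106032 and 0.208 for NM_001107033.

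**Figure D4:**
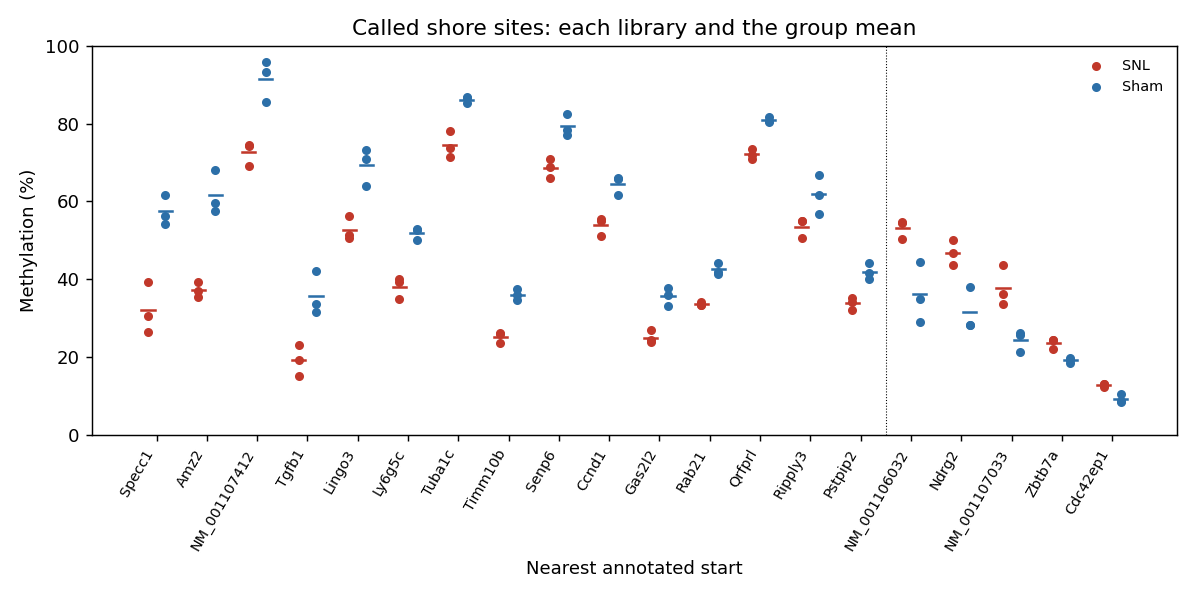
Methylation (y axis, %) of the 20 named called shore positions, 1 per nearest gene (x axis), in each SNL library (red) and each Sham library (blue), with bars at the group means. The 15 positions left of the dotted line were lower after SNL and the 5 to the right were higher, and the groups overlap at none of the 20.

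Some neighbouring shore positions were also called when taken as a unit. Reads were summed over runs of 2 or more shore positions with gaps of up to 500 bp, which gave 608 shore runs holding 1642 of the positions. The moderated logistic test called 12 of the 608 runs (1.97%), against 125 of all 8712 runs of annotated positions (1.43%), and 8 of the 12 were lower and 4 higher in SNL. Each of the 12 holds a called position, so the runs are no separate evidence. The Specc1 run of 3 positions in 21 bp had 45.1%, 46.1% and 50.5% in SNL, against 65.4%, 72.0% and 66.0% in Sham libraries (moderated logistic test, adjusted p = 0.00432). The Timm10b run of 2 positions had 40.7%, 40.6% and 38.5% in SNL, against 48.9%, 49.1% and 51.0% in Sham libraries (moderated logistic test, adjusted p = 0.00462). These 2 runs kept their call whichever library was left out. In Zbtb7a, 5 positions across 471 bp averaged 13.9% ± 0.88 in SNL and 11.3% ± 0.43 in Sham libraries (SD, n = 3 each), the longest called run. The other called runs were lower in Amz2 (by -13.1 points), NM_001107412 (-19.7), Ccnd1 (-6.51), Pstpip2 (-5.54), Tgfb1 (-14.0) and Dnase1 (-5.43), and higher in Ndrg2 (10.8), NM_001106032 (13.4) and NM_001107033 (12.6). Leaving out SNL 1, SNL 2 or SNL 3 gave 10, 3 and 3 called runs in that order, and leaving out Sham 1, Sham 2 or Sham 3 gave 2, 6 and 3. The number was 0 both with the F test on each run's own spread and with limma on logit values, with 73 and 67 shore runs at an unadjusted p under 0.05, against 79 in the moderated test.

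Neighbouring CpGs, some of them read less deeply than the annotated ones, could be compared around most named positions. At 20 reads or more in all 6 libraries, 38 neighbours within 300 bp, up to 3 for each position, were found around 19 of the 20 named positions. Of the 38, 36 differed in the same direction as the called position and 18 of these did so without overlap between the groups. Non-overlap in either direction held for 12.4% of all nuclear positions of that depth. In the moderated logistic test fitted over those positions, 9 of the 38 were themselves called, 2 of them farther than 50 bp away. Positions within 50 bp can lie on the same reads as the position chosen for its difference, so they are no separate evidence. Of 14 neighbours farther away 12 had the same direction and 4 of these had no overlap. These 4 were the Amz2 CpGs at 88 and 92 bp, a Rab21 CpG at 66 bp and a Specc1 CpG at 181 bp with as few as 21 reads. None of these 14 was an annotated position. The widest change was in Amz2. A neighbour 31 bp before the called position had 13.8%, 11.6% and 12.9% in SNL, against 12.4%, 17.3% and 15.4% in Sham libraries, with overlap. A CpG 88 bp after it had 48.4%, 40.4% and 37.6% in SNL, against 76.8%, 73.5% and 83.8% in Sham libraries. The CpG 95 bp after it had 52.7%, 53.9% and 50.5% in SNL, against 90.5%, 84.7% and 91.9% in Sham libraries. Together with the CpGs at 92 and 106 bp these form a group of 4 that can share reads, each with at least 74 reads. Fitted over all 210270 nuclear positions of 20 reads or more, of which 0.568% were called, the moderated logistic test gave adjusted p of 6.35e-07 at 88 bp and 2.16e-08 at 95 bp, against 0.833 at the CpG 31 bp before. That CpG was read at 208 reads or more. Around Rab21, a CpG 66 bp away had 44.4%, 48.5% and 50.0% in SNL, against 64.1%, 60.5% and 60.3% in Sham libraries, which was not called (moderated logistic test, adjusted p = 0.268).

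**Figure D5:**
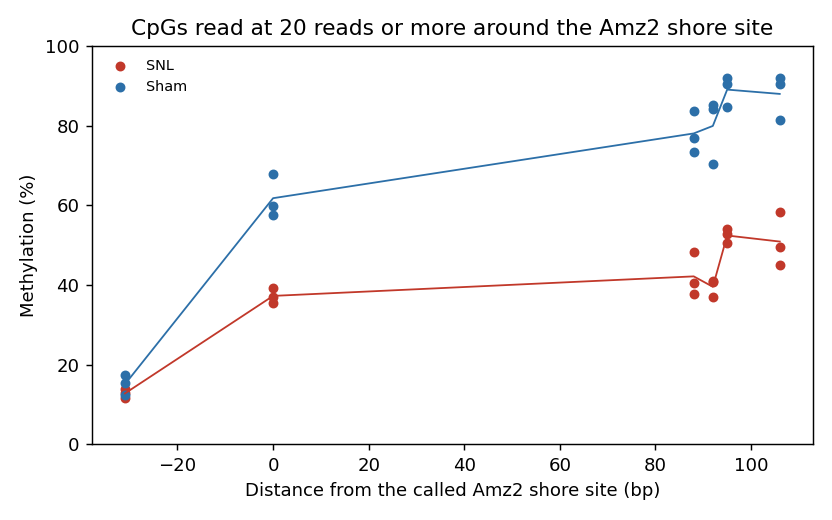
Methylation (y axis, %) of the 6 CpGs read at 20 reads or more around the called Amz2 shore position, by distance from it (x axis, bp), for SNL (red) and Sham (blue) libraries; points are libraries and lines join the group means. From the called position onward the groups separate, with a difference of -24.5 points at the position and -40.4 points at 92 bp, while 31 bp before it they overlap.

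The starts of the genes with called shores could be read in part. Of 18 genes with a called shore position within 10 kb of the start, 10 had CpGs of 20 reads or more within 1 kb of it, 48 in all, and the moderated logistic test fitted over the positions of 20 reads or more called 0 of the 48, with 4 at an unadjusted p under 0.05. At the 0.568% called over all positions of that depth, 48 positions are too few to read anything from a count of 0. The starts averaged below 20% methylation in 7 of the 10 genes. At the Tgfb1 start, 2 CpGs averaged 2.05% ± 0.53 in SNL and 1.66% ± 0.88 in Sham libraries (SD, n = 3 each), while the intronic shore position differed by -16.6 points. The Ccnd1 start had 0.69% ± 0.74 in SNL and 1.00% ± 0.96 in Sham libraries over 4 CpGs. The Tuba1c start averaged 1.46% in SNL and 1.55% in Sham libraries, and the Ripply3 start 2.22% in SNL and 1.78% in Sham libraries. At the Pax3 start, 6 CpGs averaged 8.91% ± 2.3 in SNL and 12.1% ± 2.7 in Sham libraries, with overlap. The widest start differences were those of NM_001107412, whose 4 CpGs averaged 60.3% ± 7.0 in SNL and 69.6% ± 9.1 in Sham libraries, and of Cdc42ep1, whose 1 CpG averaged 90.2% ± 1.2 in SNL and 83.7% ± 11.0 in Sham libraries, both with overlap. The starts of Amz2, Timm10b, Lingo3 and Ndrg2 had no CpG of this depth, and coverage at the other starts went down to 20 reads, at which small changes are not detectable.

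Few shores could be set against their own island. An annotated island position lay within 2 kb of 116 shore positions (5.50%), which shared 59 island positions. These shores averaged 25.7% ± 1.2 in SNL and 26.0% ± 0.43 in Sham libraries, and their islands 19.6% ± 1.2 in SNL and 19.6% ± 0.55 in Sham libraries (SD, n = 3 each). The shore was above its island at 71 of the 116 positions (61.2%). The mean step from island to shore was 6.03 ± 0.38 points in SNL and 6.32 ± 0.21 points in Sham libraries, which differed by -0.29 points at a two-sided exact permutation p of 0.4. By distance, the median level was 4.48% at 1 to 250 bp (40 positions), 4.24% at 251 to 500 bp (14 positions), 12.7% at 501 to 1000 bp (33 positions) and 23.5% at 1001 to 2000 bp (29 positions). Means in that order were 19.8%, 32.6%, 26.9% and 29.0% in SNL, against 18.6%, 32.8%, 27.9% and 30.7% in Sham libraries. The means did not rise steadily with distance, and the 251 to 500 bp bin rests on 5 island positions. Farthest out, the mean was 29.0% ± 1.6 in SNL and 30.7% ± 0.65 in Sham libraries, with overlap. None of these 116 positions was called by the moderated logistic test, the F test on each position's own spread or limma, with 20, 11 and 9 at an unadjusted p under 0.05 in that order. Over all annotated positions 1.42% were called in the moderated test, so 116 positions are too few to read much from this 0.

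Developmental transcription factors supplied many shores, and these were mostly unmethylated in both groups. Of 158 homeobox and other developmental factor genes listed, 48 had 168 shore positions, of which 120 (71.4%) were below 20%, with a median level of 8.94%. The median difference was -0.17 points, against -0.11 over all shores. Of the 168, 1 was called (0.595%, against 1.42% over all annotated positions), that of Pax3. Hoxa13, which patterns the distal limb and posterior axis, had 12.9%, 13.9% and 13.8% in SNL, against 10.2%, 11.9% and 11.1% in Sham libraries (moderated logistic test, adjusted p = 0.0752). Runx1, a factor of nociceptive neurons and blood cells, had 19.4%, 15.7% and 20.8% in SNL, against 25.1%, 26.6% and 25.8% in Sham libraries at an intronic position 1.86 kb from its start. The Runx1 groups did not overlap, and the position did not pass the moderated logistic test (adjusted p = 0.0825).

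Several developmental factor genes had 7 or more shore positions, among them Gbx2 and Rax, which are not in the list above. The listed gene Nkx2-2 averaged 46.4% in SNL and 46.0% in Sham libraries over 13 positions, with overlap. Pax2, a factor of kidney and inner ear, had 15 positions that averaged 4.32%, 5.07% and 5.12% in SNL, against 4.40%, 3.51% and 4.07% in Sham libraries, with overlap and with 13 of the 15 higher in SNL. Gata4, a factor of heart and endoderm, had 9 positions that averaged 15.7%, 15.2% and 15.7% in SNL, against 13.2%, 13.7% and 13.3% in Sham libraries. The Gata4 groups were apart by more than 1 point and 8 of the 9 positions were higher in SNL, but the lowest adjusted p among them was 0.161 in the moderated logistic test. Gbx2, a homeobox gene of the midbrain-hindbrain boundary, averaged 5.33% ± 0.16 in SNL and 4.20% ± 0.35 in Sham libraries over 7 positions (SD, n = 3 each). Rax, an eye homeobox gene, averaged 24.9%, 25.5% and 32.3% in SNL, against 34.4%, 33.3% and 31.4% in Sham libraries over 10 positions, with overlap. Nr2f2, a nuclear receptor gene, averaged 1.72% in SNL and 1.98% in Sham libraries over 9 positions, and Msx1 averaged 10.8% in SNL and 11.1% in Sham libraries over 7. Outside this family, Fcgr2al1, an Fc receptor gene, averaged 45.6% ± 6.4 in SNL and 49.2% ± 5.1 in Sham libraries, with all 11 positions lower in SNL and the groups overlapping. Gjb2, a gap junction gene, was the highly methylated exception, at 81.6% in SNL and 83.0% in Sham libraries over 7 positions. None of the 19 genes with 7 or more positions held a called one in the moderated logistic test, the F test on each position's own spread or limma, and of their 195 positions 13, 14 and 19 had an unadjusted p under 0.05 in that order. With 1.42% called over all annotated positions in the moderated test, a count of 0 among 195 says little.

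Signalling genes were similar in level. Genes of Wnt, BMP, FGF, Notch and Hedgehog signalling and related growth factors supplied 58 shore positions in 22 of 123 listed genes, with a median level of 5.67% and a median difference of 0.26 points. The call in this list was that of Tgfb1, 1 of the 58 (1.72%, against 1.42% over all annotated positions). Fgfr3, a fibroblast growth factor receptor gene, had 45.5%, 37.1% and 38.9% in SNL, against 47.8%, 58.0% and 54.8% in Sham libraries at a position 25.2 kb upstream. It did not pass the moderated logistic test over all libraries (adjusted p = 0.0563), and it did without SNL 1 (adjusted p = 0.0206) and without Sham 1 (adjusted p = 0.0297).

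Genes of the ganglion's own cells, in 7 lists, held 85 shore positions away from promoters. Over all annotated positions 955 of 8016 genes had one, but the lists also count genes with no annotated position. The moderated logistic test, the F test on each position's own spread and limma called none of the 85. An unadjusted p under 0.05 was found at 10, 9 and 7 of them in that order. At the 1.42% called over all annotated positions, 85 positions are too few to read anything from a count of 0. In the moderated test 9.85% of all shore positions had an unadjusted p under 0.05. Neuronal ion channels had 23 positions in 12 of 161 listed genes, with a median level of 3.58%. Neurotransmitter receptors had 7 positions in 4 of 108 genes, and genes of sensory neuron identity and injury had 3 in 2 of 52. Axon guidance and adhesion genes had 30 in 13 of 202, Schwann cell and satellite glia genes 4 in 4 of 34, immune genes 8 in 4 of 43, and fibroblast, vessel and matrix genes 10 in 6 of 74. At Scn8a, a neuronal sodium channel gene, methylation was 3.80%, 4.73% and 2.45% in SNL, against 7.35%, 6.91% and 5.74% in Sham libraries (moderated logistic test, adjusted p = 0.408). Cdh2, which encodes N-cadherin, had 3.38%, 2.67% and 3.73% in SNL, against 7.07%, 6.43% and 7.60% in Sham libraries (moderated logistic test, adjusted p = 0.113). Socs3, an inhibitor of cytokine signalling, had 7.83%, 8.64% and 10.8% in SNL, against 14.98%, 17.4% and 13.1% in Sham libraries at a position 19.0 kb from its start (moderated logistic test, adjusted p = 0.101). In these 3 genes, and in Gabbr1 and Pdgfra below, the groups did not overlap, and all were picked by low p within their lists. Groups did not overlap at 1 of 23 ion channel, 3 of 7 receptor, 0 of 3 sensory neuron and 8 of 30 guidance positions. The same held at 1 of 4 glial, 2 of 8 immune and 1 of 10 matrix positions, against 17.8% of all annotated positions. Gabbr1, a metabotropic GABA receptor gene, had 27.0%, 27.6% and 26.4% in SNL, against 19.6%, 20.9% and 24.0% in Sham libraries (moderated logistic test, adjusted p = 0.307). Pdgfra, a growth factor receptor of fibroblast-lineage cells, had 70.1%, 76.9% and 75.3% in SNL, against 69.5%, 60.4% and 62.7% in Sham libraries (moderated logistic test, adjusted p = 0.19). Sox11, a factor that injured sensory neurons switch on, averaged 6.81% ± 1.8 in SNL and 9.44% ± 1.5 in Sham libraries (SD, n = 3 each), with overlap.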

How the data were processed

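MspI-digested DNA (1 µg, with 100 pg of lambda phage DNA as unmethylated spike) was treated with bisulfite and read from 1 end over 50 bases, per the labels' protocols. Bismark 0.18.1, Bowtie2, methylKit 1.3.3 and the rat assembly rn4 are named in the submitters' processing notes, while the protocol text names a human assembly. The per-library files hold a read count (coverage) for each cytosine with the percent of C and of T, per the file headers. The authors' series table holds the percent methylation per library, a p-value and a q-value, and flags for promoter (about 1 kb either side of a start), island and shore, and the width of a shore is not given in the sources used here.

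Methylated reads were recovered here as coverage times percent and matched the deposited percent values. Each annotated position had 100 reads or more. Per position, a logistic regression on group was fitted, its overdispersion (4 residual degrees of freedom) was moderated with squeezeVar of limma 3.58.1 (R 4.3.3) with a floor of 1, and two-sided F tests were adjusted over 32674 positions (Benjamini-Hochberg). The tests were tested on simulated data. Runs were tested alike over 8712 runs. Library means were compared by exact permutation over 20 arrangements. Of 956 shore transcripts, 899 matched a RefSeq symbol of GRCr8, used for names and promoters only. A gene name means the nearest start.

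Named positions were up to 15 called per direction without overlap, by size, 1 per gene; called runs; the top genes of each list; and neighbours within 300 bp. The members and lists were chosen with earlier results of these data known. Alternatives were leaving out a library, the replicate number as a block, 200 reads, library offsets, other tests, 1 position per 1-kb window, gaps of 200 bp and, chosen after seeing the data, a fit over positions of 20 reads. PCR duplicates could not be told from separate molecules.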

Additional observations from a re-analysis of the deposited data

How the results depend on the processing

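The number of called shore positions, 30 (23 lower, 7 higher), was 0 with the F test on each position's own spread and with limma on logit values. It was 10 (9 lower, 1 higher) at 200 reads or more, where 15 of the 30 were still tested, and 14 (10 lower, 4 higher) among 1101 positions with 1 kept per 1-kb window. Leaving out 1 library gave 8 to 25 calls, 8 to 20 lower and 0 to 6 higher. Library offsets gave 15 lower and 15 higher, and all 15 lower and 7 of the higher were among the 30. Keeping promoter shores gave 34 (27 lower, 7 higher), and the fit over positions of 20 reads, an alternative chosen after seeing the data, gave 45 (30 lower, 15 higher) and held all 30. Called runs, 12 in all, were 0 with both other tests, 2 to 10 without 1 library, 12 at 200 reads, 16 with offsets and 11 with gaps of 200 bp. Of the 20 named positions, 6 to 14 lost their call when 1 library was left out and all 20 lost it with the other tests. None changed direction with library offsets. They were chosen for groups without overlap, so leaving out 1 library could not change their direction.

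The labels do not say whether the replicate number pairs the libraries. Deviations of same-numbered libraries correlated at r = -0.0027, 0.148 and -0.067, and 1 of 3 SNL libraries was closest to its own number. With 3 libraries a group, these values can neither show nor exclude pairing. With the number as a block, 18 positions (17 lower, 1 higher) and 5 runs were called, and 12 of the 20 named positions were. Of the named gains, Cdc42ep1 kept its call (adjusted p = 0.0324 in the moderated logistic test), and the adjusted p was 0.0781 for Ndrg2, 0.0834 for Zbtb7a, 0.0769 for NM_001106032 and 0.0584 for NM_001107033. The mean difference of shores from other positions had an exact permutation p of 0.25 under the block, the smallest 3 pairs allow.

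The mean difference of all shores, -0.29 points, was -0.52 to -0.078 without 1 library. It turned to 0.49 with offsets (exact permutation p of 0.1, the smallest possible), which take out each library's mean logit over all annotated positions. Offsets also turned the difference to 0.15 in introns, 0.60 in intergenic DNA, 0.67 between 20% and 80% and 0.18 above 80%. They raised it to 0.95 in exons and to 0.51 below 20% (exact permutation p of 0.1 each). Shores against their islands turned to 0.052 with offsets and to 0.12 with islands within 1000 bp. Exonic shores ran from -0.12 to 0.39 without 1 library and intergenic shores from -0.34 to 0.095. The difference from other positions, 0.67 points, stayed between 0.55 and 0.89 without 1 library and was 0.59 with offsets. Among list genes not called, Ncmap ran from -2.23 to 1.25 points without 1 library and was 0.083 with offsets, Il17rd ran from -4.13 to 1.15 and Tnfrsf1a from -0.27 to 3.05, and the cause was not tested for any of these changes. Depth limits what can be seen: shores had a median of 230.5 reads, and the smallest called difference, 3.61 points at Cdc42ep1, rested on 1522 reads or more.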
